A study of Mus musculus with 12 samples.

Results

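Messenger RNA of 9 genes of the tumor necrosis factor (TNF) superfamily was followed across macrophages that had met IL-4, LPS, both or neither. The genes were 5 ligands (Tnf, Tnfsf9, Tnfsf10, Tnfsf12 and Tnfsf13b) and 4 receptors (Tnfrsf1a, Tnfrsf1b, Cd40 and Fas). They were taken by symbol from tables of 23847 rows each, every symbol matched 1 row, and all 9 were among the 11191 rows that reached 1 FPKM (a fragment density per length of transcript and per mapped fragments of the library) in at least 1 sample. The cells were bone marrow-derived macrophages (BMDMs) of wild-type mice on the C57BL/6 background, 8 to 12 weeks old, grown out for 6 days in L929 cell supernatant, a source of the growth factor M-CSF. Control cells received neither agent, IL-4 cells received 20 ng/ml IL-4 for 24 h, LPS cells received 100 ng/ml LPS for 3 h, and IL-4+LPS cells received the same IL-4 pretreatment before the same LPS dose. The LPS dose is that of the labels, and the study's methods print its unit as nM. There were 3 samples per group and 12 in all. The study describes them as individual animals from independent experiments, fewer in number than the animals, so some animals shared an experiment. The labels number the samples 1 to 3 but do not tie the numbers to animals or experiments, so a p-value measures only the spread between these samples.

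TNF superfamily ligands are mostly made as membrane proteins, and some, TNF among them, are cut from the cell surface to become soluble. Their receptors signal through TRAF adaptors to NF-kB and MAP kinases, and the receptors with a death domain, such as TNFR1 and Fas, can also start caspase-driven cell death. In macrophages LPS acts through TLR4 and NF-kB to switch on Tnf, while IL-4 acts through STAT6 and drives alternative polarization.

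The treatments left their usual marks in these libraries. Retnla, a gene of alternative polarization, was at 9556 to 13030 FPKM in the 6 samples with IL-4 and at 2.82 to 19.5 FPKM in the other 6. Il1b, an inflammatory cytokine gene, was at 478 to 2500 FPKM in the samples with LPS and at most 6.44 FPKM without it. All 6 macrophage markers found, among them Csf1r and Cd68, were expressed. The summed level of these markers was lower with IL-4 (6551 to 7770 FPKM) than without it (15380 to 20531 FPKM), most of it Lyz2. The B cell, T and NK cell, mast cell and fibroblast lists held no gene at 1 FPKM or more in any sample. Of the 5 neutrophil markers listed, 4 were found. They summed to 307 to 818 FPKM in control, 210 to 389 in IL-4, 487 to 974 in LPS and 413 to 813 in IL-4+LPS, nearly all from S100a8 and S100a9, with Elane and Mpo at most 8.29 FPKM. The 4 dendritic cell markers summed to at most 1.70 FPKM without LPS, 1.16 to 2.52 in LPS and 2.53 to 3.55 in IL-4+LPS, with 2 of the 4 at 1 FPKM or more in some sample. Whether these cells contributed to the levels below was not tested, and fewer cells of a type and less RNA per cell cannot be told apart in bulk RNA. The 4 libraries numbered 1 stood apart from the other 8 on the first component of the within-group deviations (28.2% of the variance), so the comparisons are also given without them. That leaves 2 samples per group, so a p-value from such a fit measures only the spread between those 2.

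Sequence upstream of 3 of the genes is shown, taken for their responses to the 2 agents, as described below. Tnf and Fas rose with LPS and fell with IL-4, and Tnfrsf1b rose with LPS and did not pass the test with IL-4. Tnfsf10 and Tnfrsf1a also rose with LPS and did not pass with IL-4. Their windows, not shown, held no match to the motifs named below. The 250 bases before the RefSeq gene start (GRCm38.p6, gene strand, 5′ to 3′) were at chr17:35202008-35202257 (minus strand) for Tnf, chr4:145246871-145247120 (minus strand) for Tnfrsf1b and chr19:34290409-34290658 (plus strand) for Fas. Capitals mark matches, on either strand, to the 4 motifs named after them.
Tnf: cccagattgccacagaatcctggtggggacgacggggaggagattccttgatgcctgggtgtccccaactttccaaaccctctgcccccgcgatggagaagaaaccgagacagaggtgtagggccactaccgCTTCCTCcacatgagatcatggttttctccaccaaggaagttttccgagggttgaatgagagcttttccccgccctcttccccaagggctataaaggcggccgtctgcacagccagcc
Tnfrsf1b: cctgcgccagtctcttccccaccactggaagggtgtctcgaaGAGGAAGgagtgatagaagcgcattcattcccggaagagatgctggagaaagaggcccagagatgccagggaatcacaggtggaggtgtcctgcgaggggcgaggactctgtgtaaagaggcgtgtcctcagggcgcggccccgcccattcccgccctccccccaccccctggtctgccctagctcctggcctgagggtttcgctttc
Fas: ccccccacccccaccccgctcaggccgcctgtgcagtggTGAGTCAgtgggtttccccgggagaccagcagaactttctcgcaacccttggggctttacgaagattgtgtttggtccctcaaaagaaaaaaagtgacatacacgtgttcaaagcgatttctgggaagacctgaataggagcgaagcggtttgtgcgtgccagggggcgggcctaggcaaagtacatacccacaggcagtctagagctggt
The Tnf window held 1 match, on the opposite strand 118 to 112 bases before the start, to GAGGAAG, the core bound by the macrophage factor PU.1. The Tnfrsf1b window held the same core 208 to 202 bases before the start. The Fas window held the AP-1 form TGANTCA 211 to 205 bases before the start. These matches are descriptions of letters, not bound sites.

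Windows were found for 6 of the 9 genes (7 windows, since Tnfsf13b had 2), and Tnfsf9, Tnfsf12 and Cd40 had none in the table. The STAT6 form TTCNNNNGAA was found only in the 2 overlapping windows of Tnfsf13b, and the kappaB consensus in none of the 7. Of those 2 windows, 1 also held the AP-1 form, 127 to 121 bases before its start. Among all 32851 windows, 5.85% held the STAT6 form, 6.75% the AP-1 form, 10.6% the PU.1 core and 7.25% the kappaB consensus.

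The 3′ UTR of Tnf carries the AU-rich element by which proteins of the Zfp36 family, described further on, are known to destabilize this mRNA. Its core, on the minus strand at chr17:35199679-35199708 in mm10 and starting 437 bases after the stop codon, is shown with the ATTTA pentamers in capitals.
Tnf AU-rich element: attATTTAttATTTATTTAttATTTATTTA
The 764-base 3′ UTR of Tnf held 8 ATTTA pentamers, a density of 10.5 per kb, against a median of 1.23 per kb over 20979 genes of the GENCODE annotation. Tnfsf9 held 2 in 253 bases and Cd40 held 7 in 2035 bases. Tnfsf10 held 8 in 3998 bases, Tnfsf13b 6 in 3631, Tnfrsf1b 2 in 2324 and Tnfsf12 1 in 590. Fas and Tnfrsf1a held none in 448 and 490 bases. At least 1 pentamer was present in 65.0% of all genes.

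LPS changed 8 of the 9 genes. After 3 h, 7 were higher (Tnf, Tnfsf9, Tnfsf10, Tnfrsf1a, Tnfrsf1b, Cd40 and Fas), Tnfsf12 was lower, and Tnfsf13b did not pass the test. Over all 11191 rows 16.9% were called higher in LPS minus control and 57.7% lower, so 7 of 9 higher stood above the share of higher calls among all rows. Tnfsf10 reached 1 FPKM only in samples with LPS and Tnfsf13b only in samples without it, and of the other 7 genes 6 were higher. The median difference of the 9 was 2.06 on the log2(FPKM + 1) scale, beside -0.44 over all rows. That median of all rows rose to -0.14 when samples were scaled to a common median and to -0.12 after quantile normalization. The higher share of all calls then went from 22.6% to 40.0% and 40.2%.

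Tnf, the founding inflammatory ligand of the family (chr17:35199391-35201996), was at 11.8, 19.0 and 16.5 FPKM in control replicates 1 to 3 and at 1313, 1416 and 1357 FPKM in LPS. The groups were far apart, and the LPS samples were close to each other. The ratio of means was 86.4, and the log2 difference was 6.37 ± 0.21 (SE, adjusted p = 3.45e-09, limma). Tnfsf9, which encodes 4-1BBL, a costimulatory ligand for T cells, went from 0.648, 1.58 and 1.72 FPKM in control to 87.6, 181 and 168 FPKM in LPS. Replicate 1 was the lowest in both groups. The ratio of means was 111 and the log2 difference 5.95 ± 0.39 (adjusted p = 3.17e-07).

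Tnfsf10, which encodes the death ligand TRAIL, was barely detected in control, at 0.298, 0.158 and 0.0639 FPKM, about 3 to 4 fragments per sample as read from the steps of the low values. In LPS it was at 4.16, 2.16 and 2.88 FPKM. The log2 difference of 1.77 ± 0.28 (adjusted p = 0.000178) understates the change, since 1 was added to values this low. By mean FPKM, a scale that allows for transcript length, this ligand was the lowest of the 9 in control and the second lowest in LPS.

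Tnfsf12 encodes TWEAK, the ligand of the receptor Fn14, and was the only one of the 9 genes called lower with LPS. Its level was 61.1, 74.1 and 70.3 FPKM in control and 21.7, 19.3 and 20.4 FPKM in LPS, with no overlap. The control mean was 3.35 times the LPS mean, and the gene fell by 1.69 on the log2 scale (adjusted p = 7.04e-08). Its row shares a locus with the readthrough gene Tnfsfm13 and the antisense gene Tnfsf13os, and the handling of shared and antisense fragments is not given in the sources used here. Tnfsf13b, which encodes the B cell survival factor BAFF, was at 1.17, 1.21 and 0.979 FPKM in control and 0.647, 0.704 and 0.350 FPKM in LPS. These ranges did not overlap, but the log2 difference of -0.44 ± 0.19 had an adjusted p of 0.0562. Quantile normalization turned it to 0.06. It passed the test when IL-4 replicate 1, IL-4+LPS replicate 1 or IL-4+LPS replicate 2 was left out, with adjusted p of 0.0457, 0.0187 and 0.0423 at the same difference.

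**Figure D1:**
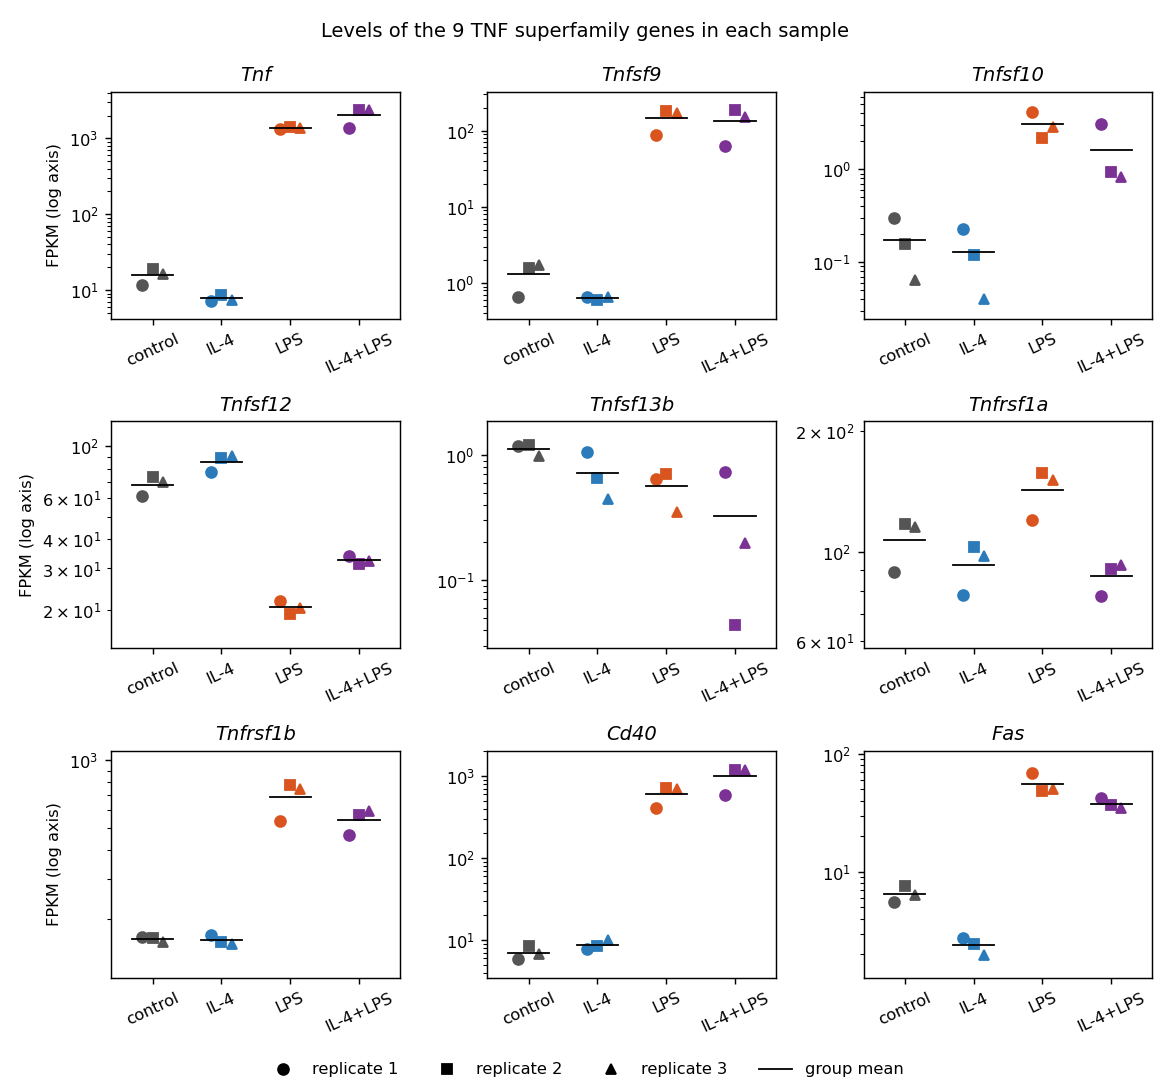
FPKM (log axis) of each of the 9 genes in the 12 samples, by group, with marker shape for the replicate number and a line at the group mean. Tnf, Tnfsf9 and Cd40 span about the whole axis between the groups without and with LPS, and Tnfsf12 runs the other way. Replicate 1 is the lowest LPS sample for Tnf, Tnfsf9, Tnfrsf1a, Tnfrsf1b and Cd40.

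All 4 receptors rose with LPS. Cd40, the costimulatory receptor engaged by CD40L on T cells, was at 5.90, 8.41 and 6.71 FPKM in control and at 410, 707 and 699 FPKM in LPS. Replicate 1 was again the lowest in both groups, and the groups did not overlap. The ratio of means was 86.4 and the log2 difference 6.21 ± 0.29 (adjusted p = 2.78e-08). Fas, the death receptor for Fas ligand, was at 5.56, 7.61 and 6.41 FPKM in control and at 68.4, 48.0 and 50.6 FPKM in LPS. Here replicate 1 was the highest LPS sample. The ratio was 8.53 and the log2 difference 2.90 ± 0.15 (adjusted p = 6.67e-08).

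The 2 receptors of TNF itself differed in the size of their response. Tnfrsf1b encodes TNFR2, which lacks a death domain, and it went from 166, 164 and 158 FPKM in control to 541, 780 and 749 FPKM in LPS. The groups were well separated, with a log2 difference of 2.06 ± 0.13 (adjusted p = 2.93e-07). Tnfrsf1a encodes TNFR1, the death domain receptor, and went from 89.1, 117 and 115 FPKM in control to 120, 157 and 152 FPKM in LPS. The lowest LPS sample lay just above the highest control sample. The log2 difference of 0.41 ± 0.15 (adjusted p = 0.0259) stood beside a median of -0.44 over all rows. That call was lost without control replicate 1 (0.29, adjusted p = 0.103), LPS replicate 2 (0.34, 0.0907) or LPS replicate 3 (0.37, 0.0803), and after quantile normalization (0.28, 0.0822) or with no filter (0.41, 0.0689). It was kept in 16 of 21 alternatives. Among these were median scaling (0.78, adjusted p = 0.000849), the replicate number as a block (0.41, 3.08e-05) and leaving out all libraries numbered 1 (0.40, 0.000108).

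IL-4 alone moved fewer of the 9. Tnf and Fas were lower, Tnfsf12 was higher, and the other 6 did not pass the test. Among all rows 16.0% were called higher in IL-4 minus control and 21.0% lower, so 1 higher and 2 lower of 9 lay near the shares among all rows. Tnf was at 7.28, 8.60 and 7.36 FPKM in IL-4, below every control sample. The control mean was 2.03 times the IL-4 mean, and Tnf fell by 0.92 on the log2 scale (adjusted p = 0.0061). Fas was at 2.75, 2.44 and 1.97 FPKM in IL-4, also below every control sample. It fell by 1.15 on the log2 scale (adjusted p = 0.000223), with a control mean 2.73 times the IL-4 mean.

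Tnfsf12 was at 77.3, 89.4 and 90.8 FPKM in IL-4, each above every control sample. The log2 difference was 0.32 ± 0.09 (adjusted p = 0.0166), a ratio of means of 1.25. It was lost without control replicate 1 (0.24, adjusted p = 0.0575), IL-4 replicate 2 (0.29, 0.0603) or IL-4 replicate 3 (0.28, 0.0678). Cd40, at 7.72, 8.50 and 9.95 FPKM in IL-4, overlapped control (0.29 ± 0.29, adjusted p = 0.471). Tnfrsf1b was at 169, 157 and 155 FPKM in IL-4, against 158 to 166 FPKM in control, with a log2 difference of -0.02 ± 0.13. The other 4 genes also overlapped control, with log2 differences of -0.47 ± 0.39 for Tnfsf9, -0.31 ± 0.19 for Tnfsf13b, -0.21 ± 0.15 for Tnfrsf1a and -0.05 ± 0.28 for Tnfsf10 (adjusted p = 0.383, 0.231, 0.303 and 0.907). Tnfsf10 was at 0.0403 to 0.230 FPKM in IL-4. Without the libraries numbered 1, when 21.7% of all rows were called higher and 29.4% lower, 1 gene was higher and 5 were lower, since Tnfsf9 (-0.71, adjusted p = 0.00144), Tnfrsf1a (-0.22, 0.00608) and Tnfsf13b (-0.43, 0.0455) joined Tnf and Fas.

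In cells pretreated with IL-4, LPS again raised 6 of the 9 genes (Tnf, Tnfsf9, Tnfsf10, Tnfrsf1b, Cd40 and Fas) and lowered Tnfsf12. Among all rows 15.0% were higher and 57.9% lower in IL-4+LPS minus IL-4. Scaling to a common median changed the higher share of all calls from 20.6% to 39.3%, and quantile normalization to 37.1%. The log2 differences were 7.83 ± 0.21 for Tnf (adjusted p = 1.28e-09), 6.61 ± 0.29 for Cd40 (2.1e-08) and 6.21 ± 0.39 for Tnfsf9 (2.76e-07). Fas rose by 3.52 ± 0.15 (2.01e-08), Tnfrsf1b by 1.75 ± 0.13 (1.09e-06) and Tnfsf10 by 1.11 ± 0.28 (0.00441). Tnfsf12 fell by 1.37 on the same scale (3.44e-07). Tnfrsf1a, called higher with LPS in the absence of IL-4, did not pass here, at 77.9, 103 and 97.4 FPKM in IL-4 and 77.5, 90.4 and 92.9 FPKM in IL-4+LPS. These ranges overlapped (-0.09 ± 0.15, adjusted p = 0.615), and median scaling turned the difference to 0.27 (adjusted p = 0.135). Tnfsf13b did not pass the test (-0.40 ± 0.19, adjusted p = 0.081) but did without IL-4+LPS replicate 1 (-0.61, 0.00705) or IL-4 replicate 3 (-0.52, 0.0493). The 2 LPS comparisons share no sample, but same-numbered samples of LPS and IL-4+LPS deviated together, as given below.

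**Figure D2:**
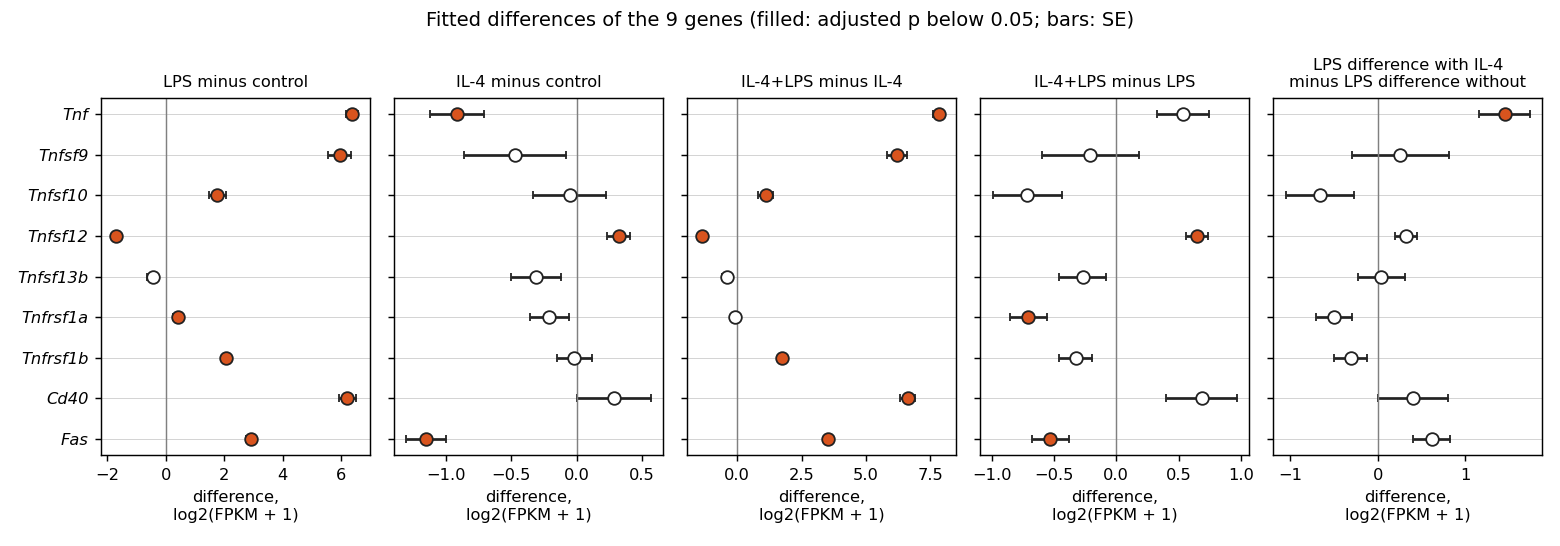
Fitted differences on the log2(FPKM + 1) scale (horizontal axis, its range set per panel) for the 9 genes in the 5 comparisons, with bars for the SE and filled points for adjusted p below 0.05. Tnf, Tnfsf9 and Cd40 lie at 5.95 or more in both comparisons with LPS against no LPS, and Tnf is the filled point in the last panel.

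Pretreatment with IL-4 changed 3 of the 9 genes within LPS-treated cells in the main fit, which did not pair samples. In IL-4+LPS minus LPS, Tnfsf12 was higher and Tnfrsf1a and Fas were lower. The shares among all rows were 15.0% higher and 15.8% lower, so 1 higher and 2 lower of 9 were near the shares of all rows. The fit with the replicate number as a block, given below, called 3 higher and 3 lower, beside 20.4% and 23.8% of all rows. Tnfrsf1a was at 77.5, 90.4 and 92.9 FPKM with pretreatment and 120, 157 and 152 FPKM without, with no overlap. It fell by 0.71 on the log2 scale (adjusted p = 0.00456), the mean with LPS alone being 1.65 times that with pretreatment. Fas was at 41.9, 37.1 and 34.8 FPKM with pretreatment and 48.0 to 68.4 FPKM without, and it fell by 0.53 (adjusted p = 0.0222). The Fas call was lost without LPS replicate 1 (-0.37, adjusted p = 0.0699), IL-4+LPS replicate 2 (-0.52, 0.0631) or IL-4+LPS replicate 3 (-0.47, 0.0789). Tnfsf12 was at 33.8, 31.3 and 32.4 FPKM with pretreatment, above the 19.3 to 21.7 FPKM of LPS alone (0.65 ± 0.09, adjusted p = 0.000326).

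For Tnf, Cd40, Tnfsf10 and Tnfrsf1b the outcome of the test changed with the treatment of the libraries numbered 1. Tnf was at 1393, 2365 and 2346 FPKM in IL-4+LPS, so replicate 1 was among the LPS values and the other 2 were above them. The log2 difference was 0.54 ± 0.21 (adjusted p = 0.0744). Cd40 was at 594, 1199 and 1188 FPKM in IL-4+LPS, and again replicates 2 and 3 lay above all LPS samples while replicate 1 lay among them (0.69 ± 0.29, adjusted p = 0.0949). Tnfsf10 ran the other way, at 3.04, 0.942 and 0.818 FPKM, with replicate 1 within the LPS range and the other 2 below it (-0.72 ± 0.28, adjusted p = 0.0768). The Tnfrsf1b ranges overlapped only through LPS replicate 1, with 469, 574 and 596 FPKM in IL-4+LPS (-0.33 ± 0.13, adjusted p = 0.0917). Tnfsf9, at 62.0, 185 and 149 FPKM in IL-4+LPS against 87.6 to 181 FPKM in LPS, overlapped (-0.21 ± 0.39, adjusted p = 0.732), as did Tnfsf13b (-0.27 ± 0.19, 0.322).

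Same-numbered LPS and IL-4+LPS samples deviated together, so a fit with the replicate number as a block was also made for this comparison. In it the unchanged differences of Tnf, Cd40 and Tnfsf10 passed the test, with adjusted p of 0.0138, 0.0102 and 0.0157, which made 3 genes higher and 3 lower, beside 20.4% and 23.8% of all rows in that fit. That of Tnfrsf1b did not (adjusted p = 0.0581). With the libraries numbered 1 left out of all groups, 3 were higher (Tnf by 0.76, Cd40 by 0.76, Tnfsf12 by 0.66) and 5 were lower (Tnfsf10 at -0.90, Tnfrsf1a at -0.75, Fas at -0.45, Tnfsf13b at -0.44 and Tnfrsf1b at -0.39), beside 21.3% and 26.1% of all rows. Leaving out IL-4+LPS replicate 1 alone brought Tnf to 0.79 (adjusted p = 0.00447), Cd40 to 1.02 (0.00774), Tnfsf10 to -1.09 (0.00188) and Tnfsf13b to -0.48 (0.0459). Without LPS replicate 1 Tnfrsf1b was at -0.49 (0.00515), and without control replicate 1 Tnf passed at 0.54 (0.0478). In IL-4+LPS replicate 2, Tnfsf13b stood at 0.0439 FPKM, about 1 fragment.

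Whether IL-4 changed the size of the LPS response was asked with the interaction, the LPS difference after IL-4 minus the LPS difference without it. Tnf was the 1 gene of the 9 that passed, with a positive value of 1.45 ± 0.29 (adjusted p = 0.0116). Over all rows 4.58% were higher and 4.63% lower in the interaction. The value for Tnf joins a lower level before LPS (7.74 FPKM on average with IL-4, 15.8 FPKM without) to a mean after LPS of 2035 FPKM with IL-4 and 1362 FPKM without. Of the other 8, Fas, Tnfsf12 and Tnfrsf1a had an unadjusted p under 0.05 (0.0151, 0.0269 and 0.0372). The 8 lay between -0.66 ± 0.39 (Tnfsf10) and 0.62 ± 0.21 (Fas, adjusted p = 0.102). Cd40 was at 0.40 ± 0.40, Tnfsf9 at 0.26 ± 0.55, Tnfsf13b at 0.04 ± 0.27 and Tnfrsf1b at -0.31 ± 0.19 (adjusted p = 0.611, 0.83, 0.954 and 0.375). Tnfsf10 passed without IL-4+LPS replicate 1 (-1.03, adjusted p = 0.0288) and Fas without LPS replicate 1 (0.77, 0.0247). Leaving out all libraries numbered 1 gave 5 genes higher and 3 lower, Tnf at 1.83 (adjusted p = 0.000167), Fas at 0.87 (0.00554) and Tnfrsf1a at -0.53 (0.00159) among them, beside 13.2% and 12.6% of all rows. That fit rests on fewer samples per group, and its p-values measure only the spread between those.

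The balance of the 2 TNF receptors was computed within each sample as Tnfrsf1b FPKM over Tnfrsf1a FPKM. In control samples it was 1.86, 1.39 and 1.37, and in IL-4 samples 2.17, 1.53 and 1.59. With LPS it was 4.49, 4.97 and 4.94, and with IL-4+LPS 6.05, 6.35 and 6.41. All 3 IL-4+LPS samples lay above all 3 LPS samples, and these lay above every sample without LPS, while control and IL-4 overlapped. The mean rose by 3.26 from control to LPS and by 1.47 from LPS to IL-4+LPS, each with a two-sided exact permutation p of 0.1, the smallest that 3 against 3 samples can give (0.133 adjusted over the 4 comparisons). This exact test cannot pass 0.05 with 3 samples per group.

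**Figure D3:**
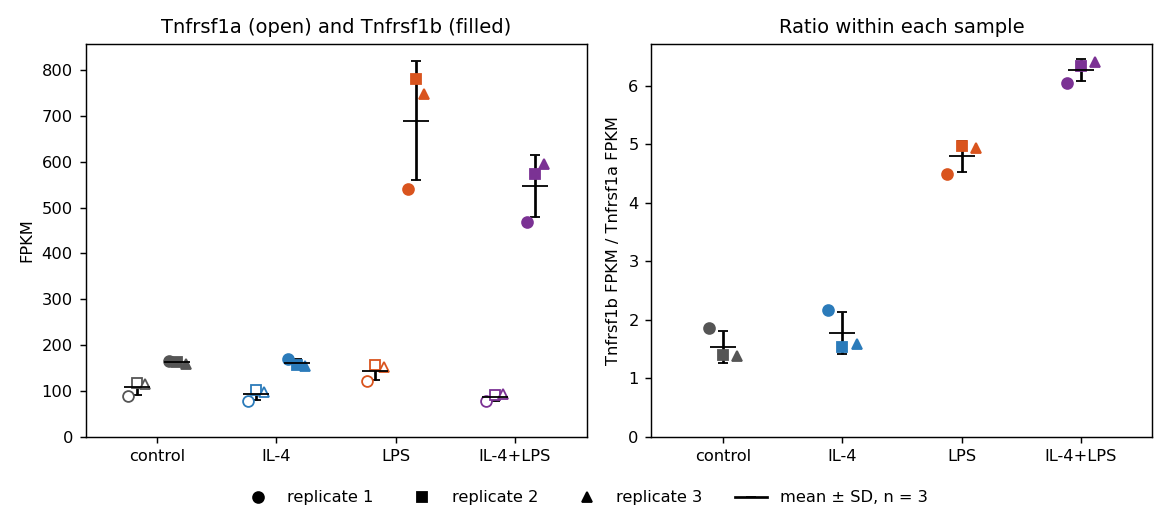
Left, FPKM of Tnfrsf1a (open) and Tnfrsf1b (filled) in each sample by group. Right, the ratio of the 2 within each sample, with bars for the mean ± SD of 3 samples and marker shape for the replicate number. The mean ratio is 1.54 for control, 1.77 for IL-4, 4.80 for LPS and 6.27 for IL-4+LPS.

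Ordered by mean FPKM, which allows for transcript length, the family turned over with LPS. In control the 3 highest were Tnfrsf1b (162 ± 4 FPKM, SD, n = 3), Tnfrsf1a (107 ± 16) and Tnfsf12 (68.5 ± 6.7), and the IL-4 samples had the same 3 on top. In LPS they were Tnf (1362 ± 52), Tnfrsf1b (690 ± 130) and Cd40 (605 ± 169). In IL-4+LPS Cd40 (994 ± 346) stood above Tnfrsf1b (546 ± 68), and Tnf was the highest at 2035 ± 556 FPKM. Across groups, Fas and Tnfsf12 were the 2 genes whose 4 group ranges were all apart from their neighbours, Fas in the order LPS, IL-4+LPS, control, IL-4 and Tnfsf12 in the order IL-4, control, IL-4+LPS, LPS. For Tnfsf13b every neighbouring pair of groups overlapped. For the other 6, the samples with and without LPS were apart for Tnf, Tnfsf9, Tnfsf10, Tnfrsf1b and Cd40, and Tnfrsf1a was apart only between LPS and control among its neighbours.

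For 8 of the 9 genes, the expressed rows most like each are given, found by Pearson's r of log2(FPKM + 1) over the 12 samples, which form 4 groups, so r mostly measures the shared group pattern. For Tnf these were Cdc42ep2, Mtmr14 and Icam1 (r = 0.998, 0.998 and 0.997), and for Cd40 they were Cdkn1a, Ptgs2 and Bcl2a1c (0.999, 0.998 and 0.998). Tnfsf9 was most like Ifi35, Adora2a and Nfkbib (0.999 to 0.998), Tnfrsf1b most like Usp12, Pdgfrb and Tmem2 (0.998 to 0.997), and Fas most like Akna, Icosl and Fnbp1l (0.996 to 0.992). Lower values were reached for Tnfsf10 (Gvin1, Zfp800 and P4ha1, 0.985 to 0.982), Tnfrsf1a (Cnn2, Rcan1 and Fhl3, 0.965 to 0.960) and Tnfsf13b (Kif9, Cep55 and Prkcb, 0.953 to 0.932).

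Of 13 further ligands of the family, 6 were expressed. With LPS 3 were higher and 2 lower, beside 16.9% and 57.7% of all rows. Lta and the 3 higher genes (Tnfsf15, Tnfsf4 and Ltb) reached 1 FPKM only in samples with LPS, and Tnfsf14 only in samples without it, so the filter on low values had a part in these counts. With IL-4 alone 2 were lower and none was higher by limma, also at an unadjusted p under 0.05. Among all rows 21.0% were lower and 16.0% higher with IL-4. Tnfsf15, which encodes TL1A, was at 0.126 to 0.266 FPKM in control and 8.21, 10.8 and 10.9 FPKM in LPS (3.20 ± 0.20, adjusted p = 1.96e-07). It reached 18.2, 31.7 and 33.5 FPKM in IL-4+LPS, above every LPS sample (1.36 ± 0.20, adjusted p = 0.000449). Tnfsf4, which encodes OX40L, a costimulatory ligand for T cells, took the same course, at 3.61, 6.87 and 6.24 FPKM in LPS and 14.7, 18.8 and 15.1 FPKM in IL-4+LPS (1.41 ± 0.18, adjusted p = 0.000166). Ltb, a lymphotoxin chain, was higher with LPS (0.64 ± 0.12, adjusted p = 0.000462). Tnfsf14, which encodes LIGHT, was lower with IL-4 (-0.88 ± 0.12, adjusted p = 0.000265), with 0.0578 to 0.152 FPKM against 0.900 to 1.26 FPKM, and so was Ltb (-0.39, 0.0227), a call lost in 4 of the 12 fits that left out 1 library. The lower level of Tnfsf14 with LPS (-0.52, adjusted p = 0.00217) was lost after quantile normalization (-0.07, 0.699). Tnfsf13, which encodes the B cell factor APRIL, was lower with LPS at -0.97 ± 0.38 (adjusted p = 0.0391), a call lost in 6 of those 12 fits, with adjusted p up to 0.146. In IL-4+LPS minus LPS Ltb and Tnfsf14 were also called lower (-0.37, adjusted p = 0.0323 and -0.35, 0.0442), calls lost in 4 of 12 and 10 of 11 such fits, since Tnfsf14 was under 1 FPKM in all samples without control replicate 1.

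Among 24 further receptors 12 were expressed. With LPS 4 were higher and 8 lower, beside 16.9% and 57.7% of all rows, with a median of -0.62 beside -0.44 over all rows. Tnfrsf9 and Tnfrsf8 reached 1 FPKM only in samples with LPS, and Tnfrsf22 and Relt only in samples without it. Higher were Tnfrsf9, the 4-1BB receptor bound by the Tnfsf9 product (1.54 ± 0.23, adjusted p = 0.000136), Tnfrsf14, a receptor for LIGHT (0.92 ± 0.13, 9.23e-05), Tnfrsf8, which encodes CD30 (0.72 ± 0.18, 0.00343), and Tnfrsf11a, which encodes RANK (0.54 ± 0.09, 0.000212). Tnfrsf21 (-2.28 ± 0.11, adjusted p = 4.95e-08) and Tnfrsf26 (-1.63 ± 0.13, 1.16e-06) fell the most. Tnfrsf13b, a receptor for BAFF and APRIL, also fell (-0.84 ± 0.26, adjusted p = 0.0121), though not after quantile normalization (-0.27, 0.451) or without control replicate 3 (-0.65, 0.0534).

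With IL-4 alone 5 of these 12 receptors were higher and 2 lower, beside 16.0% and 21.0% of all rows. Tnfrsf12a, which encodes Fn14, the receptor for TWEAK, went from 4.43, 6.13 and 5.61 FPKM in control to 15.7, 18.2 and 16.8 FPKM in IL-4 (1.50 ± 0.12, adjusted p = 7.39e-06). After LPS it was at 2.33 to 2.82 FPKM without and 2.21 to 3.02 FPKM with IL-4, which overlap. Tnfrsf26 (0.87 ± 0.13, adjusted p = 0.000485) and Tnfrsf23 (0.62 ± 0.11, 0.0018), the latter a decoy receptor for TRAIL in the mouse, were also higher, while Tnfrsf14 (-0.69 ± 0.13, 0.0023) and Tnfrsf11a (-0.69 ± 0.09, 0.000163) were lower. Within LPS-treated cells IL-4 pretreatment gave 3 receptors higher and 4 lower, beside 15.0% and 15.8% of all rows. Tnfrsf11a was at 27.3, 30.8 and 29.6 FPKM in LPS and 7.05, 6.87 and 7.76 FPKM in IL-4+LPS (-1.88 ± 0.09, adjusted p = 1.73e-07). Tnfrsf9 was at 0.808, 2.90 and 2.67 FPKM in LPS and listed at 0, 0.110 and 0.0469 FPKM in IL-4+LPS (-1.49 ± 0.23, adjusted p = 0.000799), so the receptor of the Tnfsf9 product was near zero while its ligand stood at 62.0 to 185 FPKM. Tnfrsf9 reached 1 FPKM only in LPS samples without IL-4, so the filter had a part in that call. Tnfrsf26 (1.15 ± 0.13, adjusted p = 7.99e-05) and Tnfrsf23 (0.51 ± 0.11, 0.00636) were higher, as was Tnfrsf22 (0.36, 0.0135), whose call was lost without LPS replicate 3 (0.31, 0.0565). Ltbr, the lymphotoxin receptor, was lower (-0.50, 0.0167), but not without LPS replicate 2 (-0.44, 0.0622) or LPS replicate 3 (-0.48, 0.0535).

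**Figure D4:**
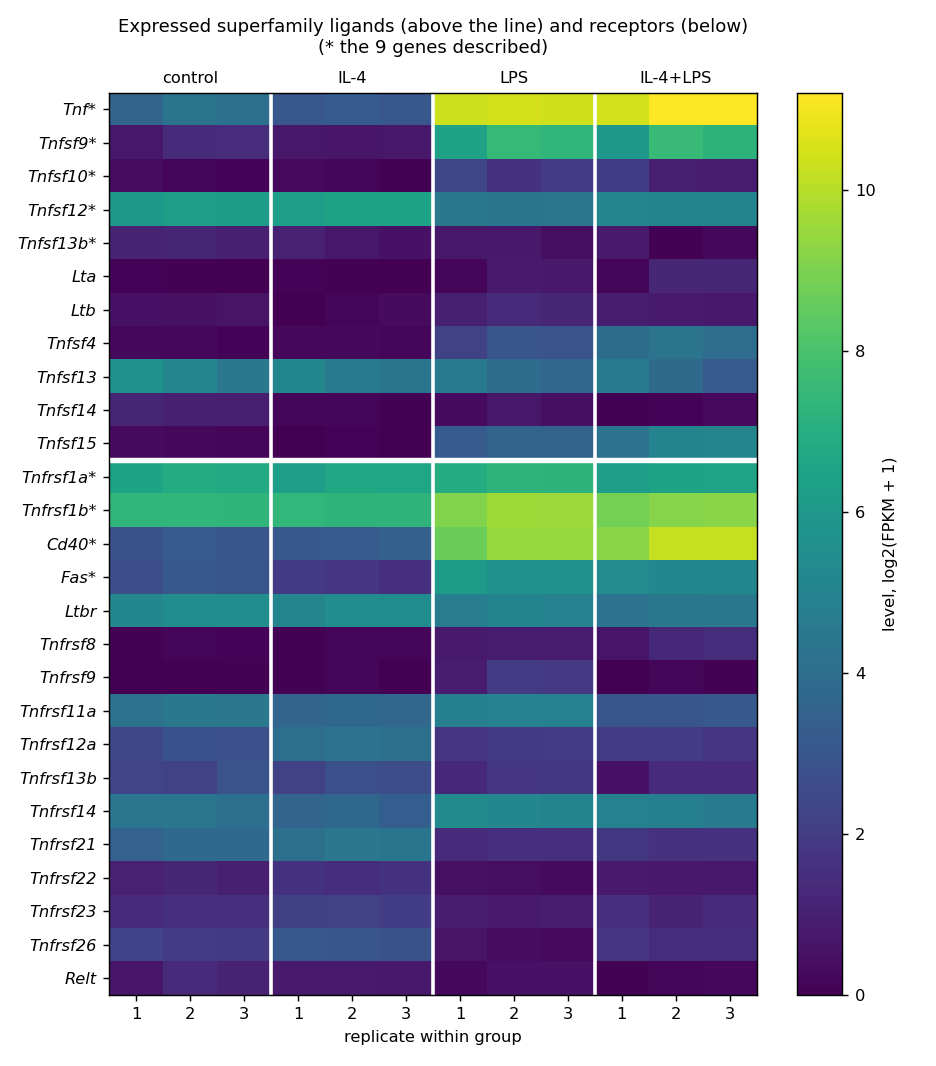
Level of every expressed ligand and receptor of the family, as log2(FPKM + 1) by color, in the 12 samples grouped by treatment (columns, with the replicate number below). An asterisk marks the 9 genes described first; Tnfsf15 and Tnfsf4 are brightest in the IL-4+LPS columns, and Tnfrsf11a and Tnfrsf9 are darker there than in the LPS columns.

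All 14 genes of a list of receptor adaptors and death signaling were expressed, 6 higher and 4 lower with LPS (median 0.14), beside 16.9% and 57.7% of all rows. Traf1, an adaptor of TNFR2 and CD40 signaling, was at 3.92, 4.40 and 3.29 FPKM in control and at 103, 160 and 150 FPKM in LPS (4.81 ± 0.24, adjusted p = 4.74e-08). Cflar (3.31 ± 0.08, adjusted p = 9.03e-10), whose product FLIP restrains caspase-8, and Birc3 (2.40 ± 0.10, 1.52e-08), whose product cIAP2 is a ubiquitin ligase of the TNFR complexes, were higher too, and Fadd, the death adaptor of Fas, was lower (-1.08 ± 0.12, 1.5e-05). Ripk3 (-0.67) and Tradd (-0.56) were also called lower with LPS, but not after scaling to a common median (-0.33, adjusted p = 0.103 and -0.21, 0.199).

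IL-4 alone gave 3 of the 14 higher and 5 lower, beside 16.0% and 21.0% of all rows. Traf5 was at 24.4, 24.0 and 27.7 FPKM in IL-4 against 7.57 to 8.82 FPKM in control (1.55 ± 0.10, adjusted p = 1.46e-06). Ripk3 and Mlkl, the kinase and effector of necroptosis, were higher (1.04 ± 0.17, adjusted p = 0.00106 and 0.45 ± 0.08, 0.00191). Traf1 (-1.01 ± 0.24, 0.00755), Birc3 (-0.91 ± 0.10, 6.39e-05) and Cflar (-0.50 ± 0.08, 0.000528) were lower. In IL-4+LPS minus LPS 3 were higher and 2 lower (15.0% and 15.8% of all rows), with Traf5 (1.51 ± 0.10, adjusted p = 1.83e-06), Ripk3 (1.00 ± 0.17, 0.00151) and Mlkl (0.44 ± 0.08, 0.00243) higher again and Birc3 (-0.54) and Ripk1 (-0.33) lower. These 2 IL-4 comparisons share no sample.

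Of 23 genes of NF-kB signaling and its feedback, all expressed, 13 were higher with LPS and 5 lower, beside 16.9% and 57.7% of all rows (median 1.20, beside -0.44). The leading ones were the feedback inhibitors Tnfaip3, which encodes A20 (4.87 ± 0.29, adjusted p = 1.5e-07), Nfkbia, which encodes IkBa (4.33 ± 0.24, 1.06e-07), and Tnip1 (3.66 ± 0.19, 6.73e-08). Map3k14, which encodes NIK, fell by 2.25 (1.42e-06) and Tab1 by 1.89 (1.59e-07). With IL-4 alone 9 were lower and 2 higher, beside 21.0% and 16.0% of all rows. Relb, the NF-kB subunit of the noncanonical pathway used by Cd40, was at 7.13, 6.21 and 6.46 FPKM in IL-4 against 20.2 to 21.4 FPKM in control (-1.52 ± 0.11, adjusted p = 4.02e-06), and Map3k14 (-1.20 ± 0.18, 0.000609) and Nfkbia (-1.04 ± 0.24, 0.00686) were lower as well. In IL-4+LPS minus LPS, where 15.0% of all rows were higher and 15.8% lower, 2 were higher, with Rel at 0.65 ± 0.15 (adjusted p = 0.00812), and 5 were lower, with Tnip1 at -0.89 ± 0.19 (0.0053) and Tab2 at -0.63 ± 0.14 (0.00588). Calls of smaller size for Ikbkg and Fam105b with IL-4 (0.27 and 0.25), and for Rbck1 (0.24) and Ikbkb (-0.39) in IL-4+LPS minus LPS, were lost in 4, 8, 4 and 3 of the 12 fits that left out 1 library.

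Of 13 genes of TNF shedding and mRNA control 12 were expressed, 5 higher and 4 lower with LPS, beside 16.9% and 57.7% of all rows. Rhbdf2, which encodes iRhom2, the partner that brings the TNF sheddase to the cell surface, was higher (2.32 ± 0.14, adjusted p = 1.92e-07). So were Zfp36, which encodes the ATTTA-binding protein TTP (2.29 ± 0.29, 3.9e-05), and Zc3h12a, which encodes the RNase Regnase-1 (2.23 ± 0.28, 3.56e-05). The relatives of Zfp36 went the other way. Zfp36l1 was at 47.9 to 55.8 FPKM in control and fell to 5.07, 2.50 and 2.28 FPKM in LPS (-3.68 ± 0.26, adjusted p = 4.65e-07), and Zfp36l2, at 83.2 to 94.3 FPKM in control, fell to 8.08, 3.68 and 3.77 FPKM (-3.95 ± 0.23, 1.36e-07). With IL-4 alone, beside the 16.0% higher and 21.0% lower of all rows, Furin was higher (0.55, adjusted p = 0.0366, lost in 4 of the 12 fits that left out 1 library) and Zfp36l1 lower (-0.997 ± 0.255, 0.0116). In IL-4+LPS minus LPS none of the 12 was lower by limma, also at an unadjusted p under 0.05, and 2 were higher. Among all rows 15.8% were lower and 15.0% higher there, so 2 higher of 12 lay near the share of all rows. The 2 were Zfp36l1 at 11.8, 7.84 and 6.79 FPKM (1.22 ± 0.26, adjusted p = 0.00458) and Zfp36l2 at 16.1, 24.1 and 21.4 FPKM (1.85 ± 0.23, 0.00016), each above all LPS samples.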

How the data were processed

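The 12 libraries were poly-A selected with a kit that does not mark strand and sequenced as paired reads. Per the submitters' processing notes, the authors used TopHat2 2.0.7, Cufflinks 2.0.2 and mm10, and the deposited values are FPKM per gene, 1 table per sample, with replicates kept apart. The annotation is not given in the sources used here. Because FPKM is scaled to all mapped fragments, a shift in RNA composition moves every gene of a sample.

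Tables were joined on symbol, locus and start site. Fragment counts were not used, and absolute depth is unknown. Steps of the low values gave an approximate relative depth of 0.991 to 3.12 (control replicate 1 set to 1). Fragment numbers read from it are approximate, and no counting interval was formed.

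Rows with at least 1 FPKM in at least 1 sample (11191) were tested as log2(FPKM + 1), which understates changes of low genes, with limma 3.58.1 in R 4.3.3 (group means over all 12 samples, intensity trend) and Benjamini-Hochberg adjustment over all rows within a comparison, at 0.05. On simulated data for LPS minus control, 98% of 200 rows of 11191 changed by 1.5 (log2) were recovered, and 4.85% of calls were false. The changed rows were drawn only from the more highly expressed rows. Noise was normal and independent between samples, with no effect of the replicate number. The 2 percentages therefore need not hold for low genes or for real samples that deviate together. The receptor ratio was tested with scipy 1.17.1.

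Same-numbered LPS and IL-4+LPS samples correlated at 0.386, 0.181 and 0.119 in their deviations from group means. The numbers were therefore taken as pairs there, in a block fit given beside the main fit without pairs. Over all 18 same-numbered pairs the mean was 0.124, and 11 were over 0.1. All 9 genes are named in every comparison. From 5 lists, the 3 largest called differences in each direction were named in the comparisons of LPS with control, of IL-4 with control and of IL-4+LPS with LPS, and Tnfrsf11a under LPS and genes with a called interaction were added after their values were seen. The genes and lists were chosen with earlier results of these data known. Alternatives were another pseudocount, filters, scalings, no trend, only the compared groups, a replicate block, a 2-fold minimum, and leaving out libraries. Promoter sequences came from RefSeq (GRCm38.p6) and UTRs from GENCODE vM21, the same build as mm10. Protein sequences were not analysed here. A searched motif and the rows most like Tnfsf12 are not reported here.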

Additional observations from a re-analysis of the deposited data

Results flagged for a closer look

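The LPS response differed between cells with and without IL-4 for 11 genes among the 9 described and the lists, each by the interaction in the limma fit (Benjamini-Hochberg adjusted over all rows). Over all rows 4.58% were called higher and 4.63% lower. Called higher and lower were 1 and 0 of the 9, 2 and 0 of 6 further ligands and 0 and 3 of 12 further receptors. They were 0 and 0 of 14 adaptor and death genes, 2 and 1 of 23 NF-kB genes and 2 and 0 of 12 shedding and mRNA genes. Tnf had a larger LPS rise after IL-4 (1.45, adjusted p = 0.0116), and kept its call in all 20 alternatives, from 1.31 to 1.83. The ligands Tnfsf4 (1.39, adjusted p = 0.0061) and Tnfsf15 (1.56, 0.00568) also rose more after IL-4. Both ligands reached 1 FPKM only in samples with LPS, so the filter had a part in these calls and in the ligand count. Of the receptors, Tnfrsf9 rose less (-1.54, 0.0159), with an LPS difference of 1.54 without IL-4 and 0.00 with it, at values near zero in 3 of the 4 groups. Tnfrsf9 reached 1 FPKM only in LPS samples without IL-4. It entered the test through the group where it was high, so the filter had a part in this call. Tnfrsf11a was higher with LPS in the absence of IL-4 (0.54) and lower with LPS in its presence (-0.65), an interaction of -1.18 (0.000336). Tnfrsf12a fell by 0.81 with LPS alone and by 2.29 after IL-4, from a level that IL-4 had raised (-1.48, 0.000665).

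Relb (1.13, adjusted p = 0.00172) and Nfkbie (1.10, 0.00606), an inhibitor of NF-kB, rose more after IL-4, from levels that IL-4 had lowered. Fam105b, listed under this older symbol of Otulin, had an interaction of -0.53 (0.0189), which was lost without IL-4 replicate 3 (-0.49, 0.0573). Zfp36l1 (2.22, 0.00376) and Zfp36l2 (2.10, 0.00281) fell less with LPS after IL-4.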

How the results depend on the processing

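Of 936 refits of the 45 differences of the 9 genes (21 alternatives for a difference between groups and 20 for the interaction, for which a fit with only the compared groups was not made), 866 kept direction and side of the threshold, 13 lost a call, 40 gained one and 17 changed sign. No called difference of the 9 changed sign. The sign changes were small values: with quantile normalization Tnfsf9 in the interaction was at -0.0049, Tnfsf13b at -0.22 there and at 0.056 for LPS minus control. Median scaling put Tnfsf13b in the interaction at -0.016, Tnfrsf1a at 0.27 for IL-4+LPS minus IL-4 and Tnfrsf1b at 0.0051 for IL-4 minus control. A pseudocount of 0.1 put Tnfsf13b in the interaction at -0.35, and leaving out all libraries numbered 1 at -0.0075. Leaving out 1 library gave -0.54 to 0.26 for Tnfsf9 in IL-4+LPS minus LPS, -0.068 to 0.73 for Tnfsf9 and -0.17 to 0.20 for Tnfsf13b in the interaction, -0.12 to 0.022 for Tnfsf10 and -0.057 to 0.0075 for Tnfrsf1b in IL-4 minus control. For Tnfsf13b under LPS it was -0.50 to -0.34. The cause was not tested.

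Counts of the 9 called moved as follows when 1 library was left out. Higher in LPS minus control were 6 to 7, lower there 1 to 2, higher in IL-4 minus control 0 to 1, lower in IL-4+LPS minus IL-4 1 to 2, higher in IL-4+LPS minus LPS 1 to 3, lower there 1 to 4, and in the interaction 1 to 2 higher and 0 to 1 lower. Without all libraries numbered 1, 2 were lower with LPS (62.9% of all rows), 5 lower with IL-4 (29.4%) and 3 lower in IL-4+LPS minus IL-4 (64.1%). In that fit 3 were higher and 5 lower in IL-4+LPS minus LPS (21.3% and 26.1%), and 5 higher and 3 lower in the interaction (13.2% and 12.6%). A 2-fold minimum left 0 higher and 1 lower in IL-4 minus control and 0 in either direction in IL-4+LPS minus LPS. With only the compared groups 2 were lower with LPS and 1 in IL-4+LPS minus LPS, as with no filter there. With the replicate block 2 were lower with LPS (62.7% of all rows) and 2 in IL-4+LPS minus IL-4 (64.4%). In the interaction 1 was lower (9.78%), Tnfrsf1a at -0.50 (adjusted p = 0.00142). Tnfrsf1a in IL-4 minus control (-0.21, 0.00503) and Tnfsf13b with LPS (-0.44, 0.0202) and in IL-4+LPS minus IL-4 (-0.40, 0.0314) also passed, and apart from those named in the report the block changed no other call of the 9. Outside IL-4+LPS minus LPS at least 1 same-numbered pair correlated under 0.1, so the numbers were not taken as pairs there. Still, 9 of 12 samples correlated best with their own number, the mean r was 0.124 for the same number and -0.0596 for different numbers, and the libraries numbered 1 lay at -33.3 to -15.5 on the first component with all others above 0. Deviations within a group sum to 0, so the mean r for different numbers largely follows from that for the same number. What a number marks is not given in the sources used here.

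Over all rows, higher calls with LPS went from 1887 to 2966 with median scaling and 2903 with quantile normalization, higher calls in IL-4+LPS minus IL-4 from 1682 to 2629 with median scaling, and lower ones from 6474 to 4057 and 4173. The block gave 2667 lower in IL-4+LPS minus LPS (1771 without it), and 1145 higher and 1095 lower in the interaction (512 and 518). Leaving out all libraries numbered 1 gave 2881, 1459 and 1393 for these. A 2-fold minimum left 883 higher and 2121 lower with LPS, 309 and 391 with IL-4, 842 and 1691 in IL-4+LPS minus IL-4, 303 and 332 in IL-4+LPS minus LPS, and 146 and 155 in the interaction. Leaving out 1 library gave 307 to 622 higher and 332 to 649 lower in the interaction. Of 81 named differences of listed genes, 17 lost a call under at least 1 alternative and 0 changed sign. Depth limits Tnfsf10 and Tnfsf13b, with about 1 to 4 fragments in some samples.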
